A study of Sus scrofa with 20 samples.

Results

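The genes described here encode subunits of the mitochondrial respiratory chain and of ATP synthase, together with a few factors that assemble complex I, as they were counted by RNA-Seq in the testis and liver of 10 boars. Members were chosen by symbol. Each reference ID of the count tables that matched a pig gene whose symbol starts with NDUF, SDH (SDHA to SDHD), UQCR, COX4 to COX8 or ATP5 was taken, whatever its level. This gave 47 IDs for 46 symbols among 21755 reference IDs, of which 6654 could be paired with a symbol. NDUFS8 was counted on 2 IDs, XM_003122434.1 and XM_003122435.1, whose reads cannot be told apart with certainty. A further 32 symbols of the rule had no matched ID and were not analysed here. They include the testis isoforms COX6B2, COX7B2 and COX8C, the catalytic subunits SDHA and SDHB, and COX4I1.

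All boars came from a cross of Duroc with an F2 population that combined Leicoma, German Landrace and Large White. They were 116 days old on average at slaughter, and the labels name no transgene and no treatment. The groups were defined by the concentration of androstenone in fat, a steroid made in the testis, degraded in the liver and responsible in part for boar taint. There were 5 boars with high and 5 with low androstenone, and each gave 1 testis and 1 liver library, so that 4 groups of 5 libraries were compared. The libraries were made from whole tissue, and fewer cells of a type cannot be told apart from less RNA per cell. Replicate numbers in the labels run from 1 to 5 within a group and do not name boars. Within a tissue each boar gave 1 library, and the p-values there measure the spread between boars. The tests across tissues take the 20 libraries as independent, although each boar gave both tissues, so their p-values leave out that pairing.

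The testis libraries held 6161397 to 15975386 counts and the liver libraries 5796973 to 26783002. Before scaling between libraries, a count of 3 was worth 0.188 to 0.487 CPM (counts per 1000000) in testis and 0.112 to 0.518 CPM in liver. This covers counting error only. The labelled tissues carried their own hepatocyte and germ cell markers. The 6 matched hepatocyte markers of a list of 11 summed to between 86181 and 255455 CPM in the livers and to no more than 123 CPM in the testes. The 5 matched germ cell markers summed to between 877 and 2513 CPM in the testes and to no more than 30.7 CPM in the livers. The 4 matched striated muscle markers reached 70.0 CPM at most in testis and 13.3 CPM in liver, where MYH7 was at 0.

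The respiratory chain passes electrons from NADH, through complex I, and from succinate, through complex II, to ubiquinone, from there through complex III to cytochrome c, and through complex IV to oxygen. Complexes I, III and IV pump protons across the inner mitochondrial membrane, and complex V, the ATP synthase, uses the gradient to make ATP. Most subunits are encoded in the nucleus, and several subunits of complex IV exist as tissue isoforms. Hepatocytes are rich in mitochondria, and in the testis Leydig cells carry out the first step of steroid synthesis inside the mitochondrion. The members were 24 IDs of complex I, 3 complex I assembly factors (NDUFAF4, NDUFAF5 and NDUFAF6), 2 of complex II (SDHC and SDHD), 2 of complex III (UQCR10 and UQCRB), 7 of complex IV (COX5B, COX6A1, COX6B, COX6C, COX7A2, COX7C and COX8H) and 9 of complex V. Every member passed the filter of at least 10 summed counts in each fit. Levels are given as CPM scaled by TMM over all 20 libraries. The TMM factors were 1.27 to 1.45 in testis and 0.515 to 0.876 in liver. At this scale a count of 3 is worth less in a testis and more in a liver than before scaling. The transcripts differ in length, so a level is compared between samples and not between genes.

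The 47 members together took between 0.826% and 1.02% of the counts of a testis library (median 0.930%, n = 10) and between 0.404% and 0.727% of those of a liver library (median 0.582%, n = 10). No liver reached the lowest testis. The share also depends on what else a library holds. The 50 most abundant other IDs held a median of 48.4% of the counts in liver and of 14.2% in testis, and with these IDs left out of the total the members took a median of 1.08% in liver and 1.07% in testis. Complex IV accounted for between 0.265% and 0.370% of the counts in testis and between 0.126% and 0.212% in liver, without overlap. Complex I also did not overlap, with 0.213% to 0.270% in testis and 0.117% to 0.181% in liver. The share of complex V did overlap, with 0.257% to 0.373% for the testes and 0.136% to 0.397% for the livers, and with the highest value in high androstenone liver 3.

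**Figure D1:**
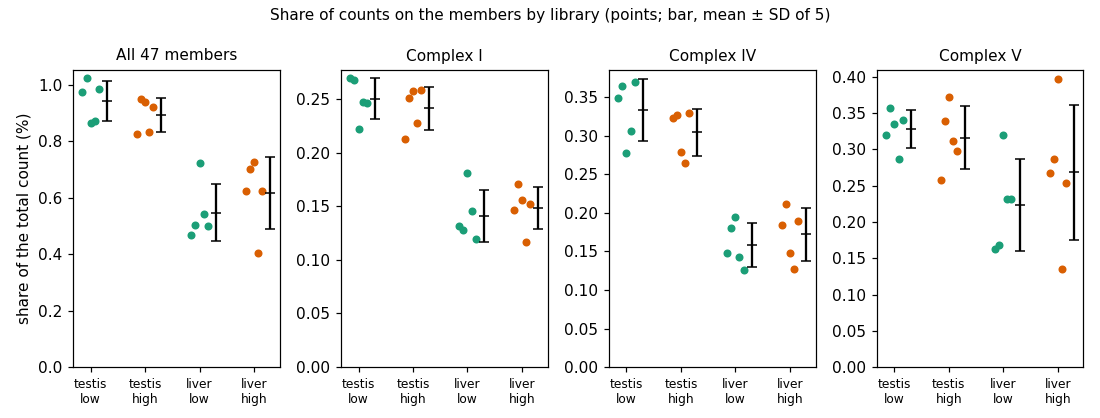
Share of the total count (y axis, percent) that fell on all 47 members and on the members of complexes I, IV and V in each library (points) of the 4 groups, with the mean ± SD of the 5 libraries of a group as a bar; the y axes start at 0 and differ between panels. All testes lie above all livers in the first 3 panels, while the complex V points of the livers spread from 0.136% to 0.397% and overlap those of the testes.

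After TMM scaling most members had lower counts in testis than in liver. A member was called where edgeR's quasi-likelihood test over all IDs gave a change of 1.5-fold or more with an adjusted p under 0.05. By this rule 31 of 47 members (66%) differed between the tissues. Of all 19065 IDs tested 75.7% did, so that differences were common in the whole table. The direction was 6 higher and 25 lower in testis, where the background was 43.5% higher and 32.2% lower. At an unadjusted p under 0.05 there were 35 members (74.5%), against 80.2% of all IDs. By sign alone, 11 members had a value above 0 and 36 below 0, where 55.2% of all IDs were above and 44.8% below. The median log2 fold change, testis over liver, was -0.65 over the members and 0.31 over all IDs. The libraries of the 2 tissues did not overlap for 14 members (29.8%), against 42.8% of all IDs.

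The sign of these values rested on the scaling. With library totals alone, the median moved to 0.31 over the members and to 1.28 over all IDs. Then 16 members were called higher and 7 lower, where 11348 and 3577 of 19065 IDs were. Of the calls over all IDs 76.0% were higher instead of 57.4% with TMM. Upper quartile scaling gave 4 members higher and 33 lower, where 7290 and 7299 of 19065 IDs were, with 49.97% of all calls higher. The distance of the members' median from that of all IDs was -0.98 to -0.96 under TMM, size factors, upper quartile scaling and library totals. A change of scaling moves all IDs of a library together, so this distance could hardly move with it. Without the 4 livers with the highest share of mapped reads it was -0.88. Of the members lower in testis with TMM, 7 kept their direction and call with library totals. These were NDUFA4, NDUFS6, NDUFB11, SDHD, COX6B, ATP5G1 and ATP5D. The 6 members higher in testis did so too, but library totals moved values towards testis and could hardly undo those calls. Upper quartile scaling, which moved values the other way, called 4 members higher.

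**Figure D2:**
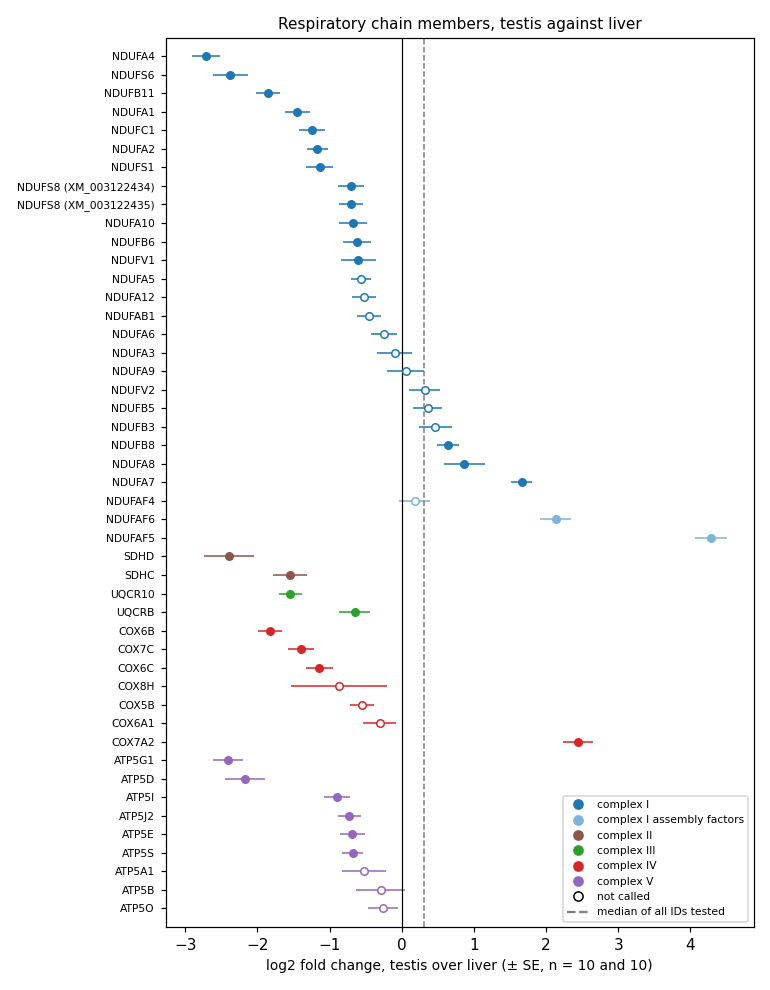
Log2 fold change of each member, testis over liver (x axis, ± SE, 10 libraries a tissue, TMM scaling), with the members ordered by complex on the y axis; filled points passed the threshold, open points did not, and the dashed line is the median of all IDs tested, 0.31. Of the 47 members 36 lie below 0, where 15 do with library totals in place of TMM, and NDUFAF5, COX7A2, NDUFAF6 and NDUFA7 lie furthest to the right.

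In complex I, the NADH dehydrogenase that takes up electrons from NADH, 3 IDs were higher in testis and 12 lower with TMM scaling. NDUFA4, which was named as a complex I subunit and was later assigned to complex IV, had the lowest log2 fold change of all members. Its level was 23.4 to 73.1 CPM in testis (median 38.9) and 169 to 382 CPM in liver (median 255), and the 2 tissues did not overlap. The log2 fold change was -2.71 ± 0.19 (SE, adjusted p = 2.1e-12), or 6.54-fold higher in liver. NDUFS6, an accessory subunit next to the iron-sulphur clusters, was low in testis, at 1.42 to 4.17 CPM (median 1.88), and reached 6.63 to 17.8 CPM in liver (median 11.5). Its log2 fold change was -2.37 ± 0.25 (adjusted p = 2.7e-09). NDUFB11, of the membrane arm, had 16.6 to 33.6 CPM in testis (median 23.7) and 64.3 to 112 CPM in liver (median 93.0), a log2 fold change of -1.85 ± 0.17 (adjusted p = 2.4e-10). NDUFA1 (-1.44 ± 0.17), NDUFC1 (-1.24 ± 0.18) and NDUFA2 (-1.17 ± 0.15) were also lower in testis by this test, and were not called lower with library totals.

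Other subunits of the same complex went the opposite way. NDUFA7 had 153 to 250 CPM in testis (median 186) and 49.4 to 82.9 CPM in liver (median 58.9), with no overlap and a log2 fold change of 1.66 ± 0.15 (adjusted p = 1.2e-10). NDUFA8 was higher in testis by 0.87 ± 0.29 (adjusted p = 0.0079), although its tissues overlapped, since the livers ran from 9.87 to 115 CPM and the testes from 101 to 137 CPM. NDUFB8 was higher by 0.64 ± 0.15. NDUFA8 and NDUFB8 had the lowest values of the 6 members called higher, and upper quartile scaling called 4 members higher. Of the core subunits, which carry the redox centres, NDUFS1 is the largest and the carrier of several iron-sulphur clusters. It had 25.6 to 42.5 CPM in testis (median 29.1) and 38.6 to 104 CPM in liver (median 60.0), a log2 fold change of -1.14 ± 0.19 (adjusted p = 5.5e-06). NDUFV1, which binds NADH and FMN, had a log2 fold change of -0.60 ± 0.24 (adjusted p = 0.026), close to the threshold of a 1.5-fold change. It was no longer called without high androstenone liver 3, at -0.36, and likewise without low androstenone testis 1 or 4, high androstenone testis 1 or 5, or low androstenone liver 3 or 4, at values between -0.58 and -0.51. NDUFV2, the partner of NDUFV1, had 0.32 ± 0.22 and was not called.

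The assembly factors gave the value furthest from 0 on the upper side. NDUFAF5, which modifies a core subunit during assembly of complex I, had 33.3 to 54.5 CPM in the testes (median 44.3) and 0.55 to 3.96 CPM in the livers (median 2.34). The tissues were far apart, by 19.5-fold (log2 fold change 4.28 ± 0.22, adjusted p = 3.2e-15). NDUFAF6 had 10.7 to 37.3 CPM in testis (median 21.9) and 2.84 to 8.06 CPM in liver (median 5.07), a log2 fold change of 2.13 ± 0.21 (adjusted p = 1.4e-09). NDUFAF4 was at 15.6 ± 4.13 CPM (SD, n = 10) in testis and 13.8 ± 6.18 CPM (SD, n = 10) in liver and was not called.

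Both matched subunits of complex II, which anchor succinate dehydrogenase in the inner membrane and bind ubiquinone, were lower in testis. SDHD had 5.59 to 13.2 CPM in testis (median 9.78) and 10.5 to 120 CPM in liver (median 36.0). The lowest liver, high androstenone liver 4, fell within the range of the testes, and the log2 fold change was -2.39 ± 0.35 (adjusted p = 8.8e-07). SDHC had 20.5 to 41.1 CPM in testis and 32.1 to 156 CPM in liver, a log2 fold change of -1.55 ± 0.24 (adjusted p = 2.3e-06) that was -0.50 and not called with library totals. In complex III, which hands electrons to cytochrome c, UQCR10 was lower in testis by a log2 value of -1.54 ± 0.16 without overlap, and UQCRB by -0.65 ± 0.21, and neither was called lower with library totals.

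In complex IV, cytochrome c oxidase, 1 subunit was higher in testis and 3 were lower with TMM, of which COX6B was also lower with library totals. COX7A2, the form of subunit VIIa found in liver and most other tissues, stood at 828 to 1473 CPM in the testes (median 1035) and at 94.0 to 273 CPM in the livers (median 204). Every testis was above every liver, and the log2 fold change was 2.44 ± 0.21 (adjusted p = 6.3e-11). COX6B had 32.5 to 91.4 CPM in testis (median 50.8) and 138 to 252.1 CPM in liver (median 197), a log2 fold change of -1.83 ± 0.17 (adjusted p = 3.9e-10). COX7C, with 177 to 319 CPM in testis (median 240) and 353 to 825 CPM in liver (median 616), was lower in testis by -1.39 ± 0.18 (adjusted p = 1.4e-07), and COX6C by -1.14 ± 0.18. COX6A1, the form of subunit VIa outside striated muscle, had 331 to 526 CPM in testis and 161 to 842 CPM in liver, and its log2 fold change of -0.30 ± 0.23 did not pass (adjusted p = 0.22). COX5B, a zinc-binding subunit, had 360 to 664 CPM in testis and 456 to 798 CPM in liver. Its log2 fold change of -0.55 ± 0.17 passed on p (adjusted p = 0.0041) and not on fold.

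COX8H, the form of subunit VIII known from heart and skeletal muscle, was near the limit of counting in both tissues. Its counts were 0, 2, 13, 14 and 0 in the low androstenone testes, and 24, 14, 0, 0 and 1 in the high androstenone testes. They were 13, 35, 1, 1 and 11 in the low androstenone livers and 12, 0, 8, 0 and 0 in the high androstenone livers. No fold change is drawn from these counts.

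In complex V, 6 of 9 subunits were lower in testis and none higher with TMM, while with library totals ATP5G1 and ATP5D were still lower and ATP5B and ATP5O were called higher. ATP5G1, which encodes the c subunit of the membrane ring together with near-identical sister genes, had 20.7 to 49.6 CPM in testis (median 24.5) and 87.8 to 267 CPM in liver (median 130). The tissues did not overlap, with a log2 fold change of -2.41 ± 0.21 (adjusted p = 7.8e-11), and reads of its sister genes cannot be told apart with certainty. ATP5D, the delta subunit of the central stalk, had 41.9 to 115 CPM in testis (median 65.5) and 135 to 777 CPM in liver (median 276), a log2 fold change of -2.17 ± 0.28 (adjusted p = 1.1e-07). The catalytic head was not separated between the tissues. ATP5B, the beta subunit that carries the catalytic sites, had 464 to 1034 CPM in testis (median 772) and 227 to 2997 CPM in liver (median 596), and ATP5A1, the alpha subunit, 287 to 464 CPM in testis (median 378) and 129 to 1638 CPM in liver (median 451). The log2 fold changes were -0.29 ± 0.34 for ATP5B and -0.52 ± 0.31 for ATP5A1, neither past the threshold, and the value of ATP5B turned to 0.14 without high androstenone liver 3.

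The livers differed from each other more than the testes did. Among the 44 members with a mean of at least 5 CPM in both tissues, the median coefficient of variation over 10 libraries was 31.9% in liver and 20.1% in testis. This was shared by the whole table, since over 6348 IDs chosen in the same way the medians were 34.4% and 21.3%. The members themselves were unequal. The coefficient of variation in liver was 87.9% for ATP5B, 76.1% for ATP5A1 and 72.5% for SDHD, against 23.3%, 15.9% and 26.8% in testis. That of NDUFA7 was 15.2% in liver and 14.7% in testis.

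The share of reads that aligned to the reference sequences differed between the livers, and the members were compared with it. The share was calculated from the read numbers listed for each library, and the slope was fitted within each tissue as a log2 change per 10 percentage points, with the androstenone group in the model. The counts and the share come from the same alignment. For high androstenone liver 3 the listed percentages of mapped and unmapped reads are the other way round from its listed read numbers, and the read numbers were used. The 26783002 counts of this library are close to its listed number of mapped reads. With the listed percentage instead, which is at odds with that count, edgeR called 0 members and 0 IDs of the whole table. In that fit 0 members had an unadjusted p under 0.05, where 1800 of 15855 IDs did. With the read numbers, in liver 17 of 47 members (36.2%) passed an adjusted p under 0.05 by edgeR's quasi-likelihood test, of which 16 rose with the share and 1 fell. Over all 15855 IDs 29.3% passed, 15.1% upwards and 14.2% downwards. The slope was above 0 for 32 of 47 members, where it was above 0 for 47.9% of all IDs. The median slope was 0.25 over the members and -0.04 over all IDs.

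The steepest slopes were those of ATP5B, SDHD and ATP5A1. From the lowest to the highest share, the level of ATP5B was 227, 596, 472, 397, 398, 596, 1222, 1083, 1336 and 2997 CPM in the 10 livers. The last 4 of these, low androstenone liver 3, high androstenone liver 2, low androstenone liver 5 and high androstenone liver 3, were all above the first 6. The slope was 1.73 ± 0.21, that is 3.32-fold per 10 percentage points (adjusted p = 1.4e-04). For SDHD the values in the same order were 10.5, 33.0, 38.9, 16.4, 18.8, 29.2, 70.3, 85.6, 78.0 and 120 CPM. The last 4 were again the highest, and the slope was 1.72 ± 0.25 (adjusted p = 3.5e-04). ATP5A1 had 129 to 480 CPM in the first 6 livers and 660 to 1638 CPM in the last 4, with a slope of 1.47 ± 0.26 (adjusted p = 9.7e-04). NDUFA9, an accessory subunit near the site of ubiquinone binding, had 97.6 to 200.4 CPM in the first 6 and 234 to 483 CPM in the last 4, a slope of 1.19 ± 0.19 (adjusted p = 5.9e-04).

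Further members that rose with the share in liver were NDUFA8 (1.27 ± 0.32), ATP5D (1.05 ± 0.24), SDHC (1.03 ± 0.20), NDUFB5 (0.89 ± 0.18), COX6A1 (0.88 ± 0.23), ATP5O (0.85 ± 0.17) and NDUFV2 (0.83 ± 0.16). The remaining 5 IDs that rose, NDUFS1, NDUFB6, NDUFAF4, NDUFS8 (XM_003122434.1) and NDUFAB1, had slopes between 0.56 and 0.75. By complex, the test called 8 of 24 IDs of complex I, 1 of 3 assembly factors, both subunits of complex II, 1 of 7 of complex IV and 4 of 9 of complex V upwards. UQCRB, a ubiquinone-binding subunit of complex III, was the member that fell, by 0.73 ± 0.23 (adjusted p = 0.0255), and it was not called without low androstenone liver 2 or 5 or high androstenone liver 3 or 4. The slopes of COX7C (0.04 ± 0.22), ATP5E (0.04 ± 0.23) and NDUFA1 (-0.01 ± 0.21) were among those that did not pass.

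**Figure D3:**
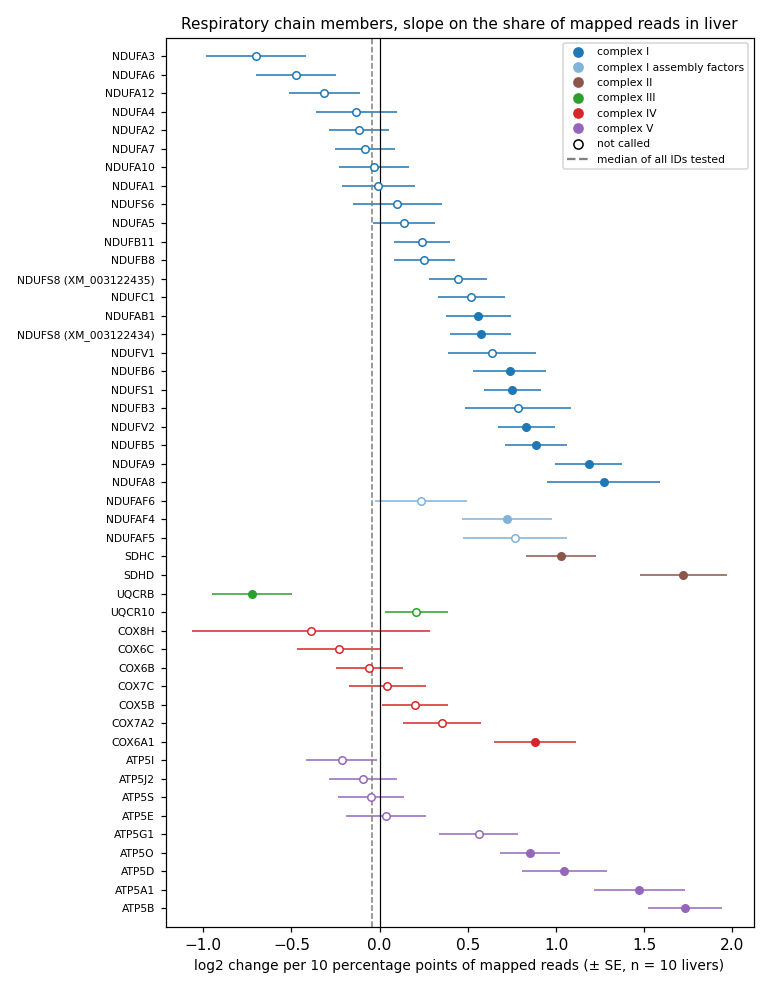
Slope of each member on the share of mapped reads in the 10 livers (x axis, log2 change per 10 percentage points, ± SE), with the members ordered by complex on the y axis; filled points passed the threshold and the dashed line is the median of all IDs tested, -0.04. The filled points run from 0.56 to 1.73 except for UQCRB at -0.73.

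The 4 livers with the highest share lay above the other 6 without overlap for 14 members, where 7.15% of all IDs did, and below them for 0 members, where 7.48% did. This is the same contrast as the slope and no further evidence for it. The 4 livers did not stand apart in depth, with totals from 6749153 to 26783002 against 5796973 to 20765353 in the other 6. Their TMM factors lay between 0.515 and 0.793 and those of the other livers between 0.644 and 0.876. With library totals in place of TMM the median slope moved to -0.32 over all IDs and to -0.01 over the members, and 8 members were called upwards and 3 downwards (UQCRB, NDUFA3 and NDUFA6), with 6.41% and 21.9% of all IDs. Without high androstenone liver 3, the liver with the highest share, 11 members were called, all of them upwards, where 9.29% of all IDs were called upwards and 9.49% downwards. Called in all 3 fits were 8 members, ATP5A1, ATP5B, ATP5O, SDHC, SDHD, NDUFA9, NDUFB5 and NDUFV2. Of the 6 hepatocyte markers, 1 rose with the share (TF, 0.84 ± 0.21), and the slopes of the other 5, which did not pass, ran from -0.67 for APOA2 to 0.68 for ALB. Of the markers listed for other cell types, ACTA1, SYCP3 and INHBA passed by edgeR's test, as 29.3% of all IDs did. ACTA1, listed for striated muscle, had 1.92 ± 0.31 (adjusted p = 6.6e-04, at most 13.1 CPM in a liver). SYCP3, listed for germ cells, had -1.38 ± 0.21 (adjusted p = 4.4e-04) and 5.15 to 29.8 CPM in the livers. SPACA1 and TNP1 of the same list did not pass, with at most 0.897 and 3.19 CPM in a liver. INHBA, listed for Sertoli cells, had -0.58 ± 0.19 (adjusted p = 0.029). It did not separate the tissues, with a log2 fold change, testis over liver, of 0.10 ± 0.19 (adjusted p = 0.62). HBB, of red blood cells, had 0.81 ± 0.43 and did not pass. The part of RNA quality, cell content or alignment in these slopes was not tested.

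In testis no member passed for the slope on the share, and no ID of the whole table did (0% of 18340). At an unadjusted p under 0.05 there were 4 members (8.51%) where 9.32% of all IDs were, and DESeq2 called 305 IDs in the whole table but 0 members. The slope was above 0 for 26 of 47 members, where it was above 0 for 48.2% of all IDs. The smallest p-values belonged to NDUFB11, with a slope of 1.30 ± 0.44 (adjusted p = 0.42), NDUFAF4, with 1.00 ± 0.42 (adjusted p = 0.50), and SDHC, with 0.94 ± 0.40 (adjusted p = 0.50). Whether the slopes of the tissues differ was not tested.

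**Figure D4:**
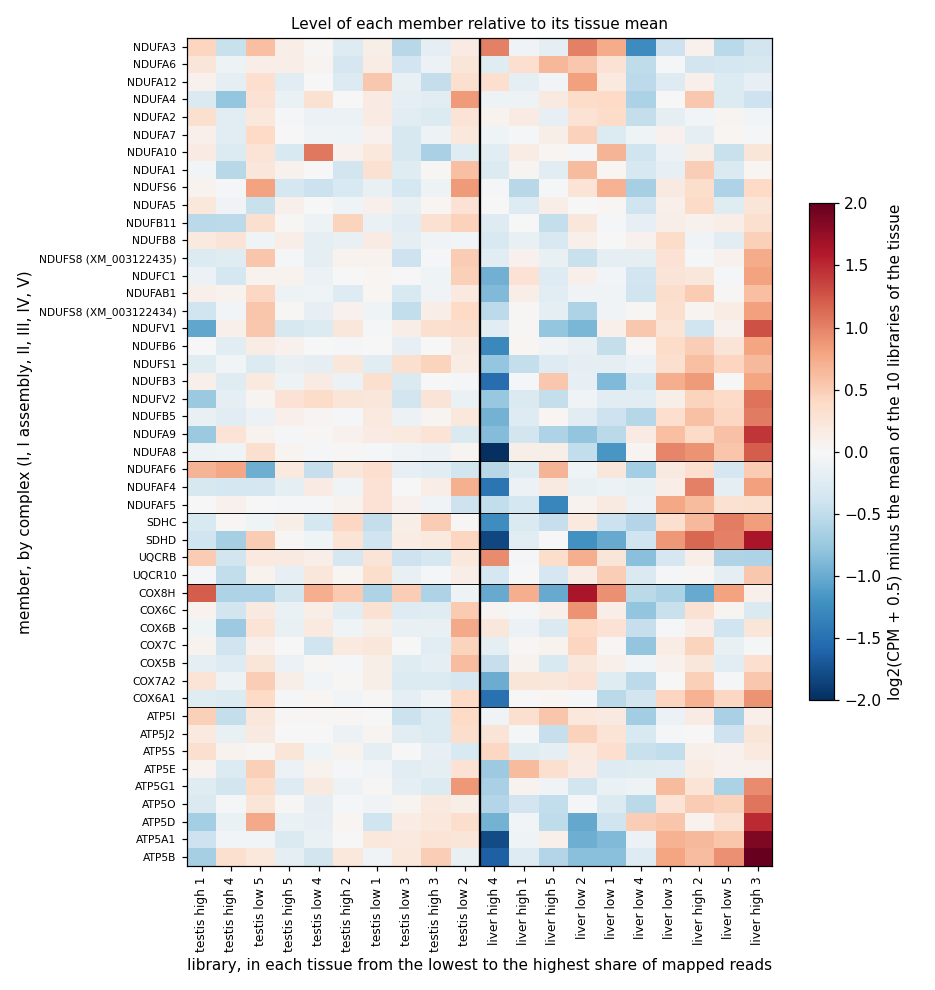
Level of each member (rows, by complex and by its slope in liver) in each library (columns, in each tissue from the lowest to the highest share of mapped reads), as log2(CPM + 0.5) minus the mean of the 10 libraries of that tissue; red is above and blue below that mean. The liver columns at the right end are red for ATP5B, ATP5A1, SDHD and NDUFA9, the column of high androstenone liver 4 is blue for them, and the testis columns are paler.

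The study compared boars with high and low androstenone within each tissue. With DESeq, at an adjusted p under 0.05 and a stated fold change of at least 1.5, it reported differentially expressed genes in both tissues, HBB in testis among them. The log fold changes that it lists are all at least 1.5 in size, which is a stricter cut than 1.5-fold. It also required an adjusted p under 0.05 in a GLM analysis. For selected genes it reported concordant qRT-PCR results in the same boars and a similar pattern in further boars. The values below come from edgeR and DESeq2 instead. In testis no member passed the threshold, and no ID of the whole table did (0% of 18340, edgeR's quasi-likelihood test, smallest adjusted p = 0.24). DESeq2 called 119 IDs in the whole table and 0 members. At an unadjusted p under 0.05 there were 6 members (12.8%) where 9.49% of all IDs were. NDUFA4 had the smallest p. Its levels were 45.4, 73.1, 35.2, 50.01 and 49.5 CPM in the low androstenone testes, and 33.1, 40.7, 34.5, 23.4 and 37.0 CPM in the high androstenone testes. The groups overlapped, since low androstenone testis 3 lay below 2 of the high ones. The log2 fold change, high over low, was -0.60 ± 0.20 (adjusted p = 0.40), and an exact permutation test gave p = 0.024.

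ATP5G1 had 27.3, 49.6, 23.7, 30.5 and 35.1 CPM in the low androstenone testes and 22.8, 25.2, 22.1, 20.7 and 22.5 CPM in the high androstenone testes. The high group was narrow, and 1 of its libraries lay above the lowest of the other group. The log2 fold change was -0.57 ± 0.19 (adjusted p = 0.41), with p = 0.016 in the exact permutation test. COX6B had 58.3, 91.4, 48.52, 61.7 and 65.2 CPM with low androstenone and 50.8, 50.7, 48.3, 32.5 and 48.3 CPM with high androstenone. The groups overlapped at low androstenone testis 3, and the log2 fold change was -0.51 ± 0.19 (adjusted p = 0.44, exact permutation p = 0.024). NDUFA12, a peripheral subunit of complex I, had -0.46 ± 0.18 (adjusted p = 0.45, exact permutation p = 0.040). The other 2 with an unadjusted p under 0.05 were COX6C, with -0.39 ± 0.17, and NDUFAF6, the only one of the 6 with a value above 0, with 0.64 ± 0.25. None of the 6 passed after adjustment over all IDs.

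The log2 value was below 0 in testis for 39 of 47 members, where it was below 0 for 52% of all IDs, and above 0 for the other 8, where it was above 0 for 48% of all IDs. The median was -0.16 over the members and -0.02 over all IDs. The members were measured in the same libraries and are not independent of each other, so the count of signs is a description. It lay between 36 and 39 when each testis was left out in turn and was 37 with the share of mapped reads in the model. The groups overlapped for every member, where 1.86% of all IDs did not overlap. In summed share of counts, the members took 0.894% ± 0.060 (SD, n = 5) with high and 0.944% ± 0.071 (SD, n = 5) with low androstenone. The 4 matched Leydig cell markers summed to between 823 and 3406 CPM with high and between 694 and 3324 CPM with low androstenone, and the germ cell markers to between 1420 and 2513 CPM and between 877 and 2345 CPM. The Sertoli cell markers summed to between 80.6 and 204 CPM with high and between 162 and 225 CPM with low androstenone. The largest part of the Leydig and Sertoli cell sums came from INSL3 and CLDN11, with means of 1579 and 137 CPM over all testes. HBB, the 1 matched marker of blood, had 11.7 to 47.5 CPM with high and 25.5 to 245 CPM with low androstenone, a log2 fold change of -1.71 ± 0.52 (adjusted p = 0.35), and 0 markers of any list passed. The part of these markers in the members' values was not tested.

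In liver no member and no ID passed (0% of 15855, edgeR's quasi-likelihood test), and DESeq2 called 7 IDs in the whole table and 0 members. No member reached an unadjusted p under 0.05 with edgeR, where 2.93% of all IDs did. With DESeq2 1 member did, where 647 of 15855 IDs did. The smallest p belonged to ATP5I, the e subunit of the ATP synthase. Its levels were 188, 193, 154, 102 and 106 CPM in the low androstenone livers and 207, 186, 178, 158 and 246 CPM in the high androstenone livers. The groups overlapped, and the log2 fold change was 0.47 ± 0.27 (unadjusted p = 0.098 by edgeR's quasi-likelihood test, exact permutation p = 0.12). NDUFAF4 had 0.47 ± 0.37 and NDUFAF6 0.42 ± 0.33.

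The sign ran against that in testis. The log2 value was above 0 in liver for 41 of 47 members, where it was above 0 for 51.7% of all IDs, with a median of 0.17 over the members and 0.01 over all IDs. The count moved with 1 library. Without high androstenone liver 3 the value was above 0 for 26 of 47 members and the median was 0.04. The groups overlapped for every member, where 0.555% of all IDs did not overlap. A test of the difference between the tissues called 0 members and 0 IDs of 19065 (0%), and 1 member, ATP5G1, had an unadjusted p under 0.05 (log2 difference -0.82 ± 0.39), where 4.67% of all IDs did. DESeq2 called 0 members for this difference and 1 ID of the whole table. With DESeq2 3 members had an unadjusted p under 0.05, where 955 of 19065 IDs did.

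**Figure D5:**
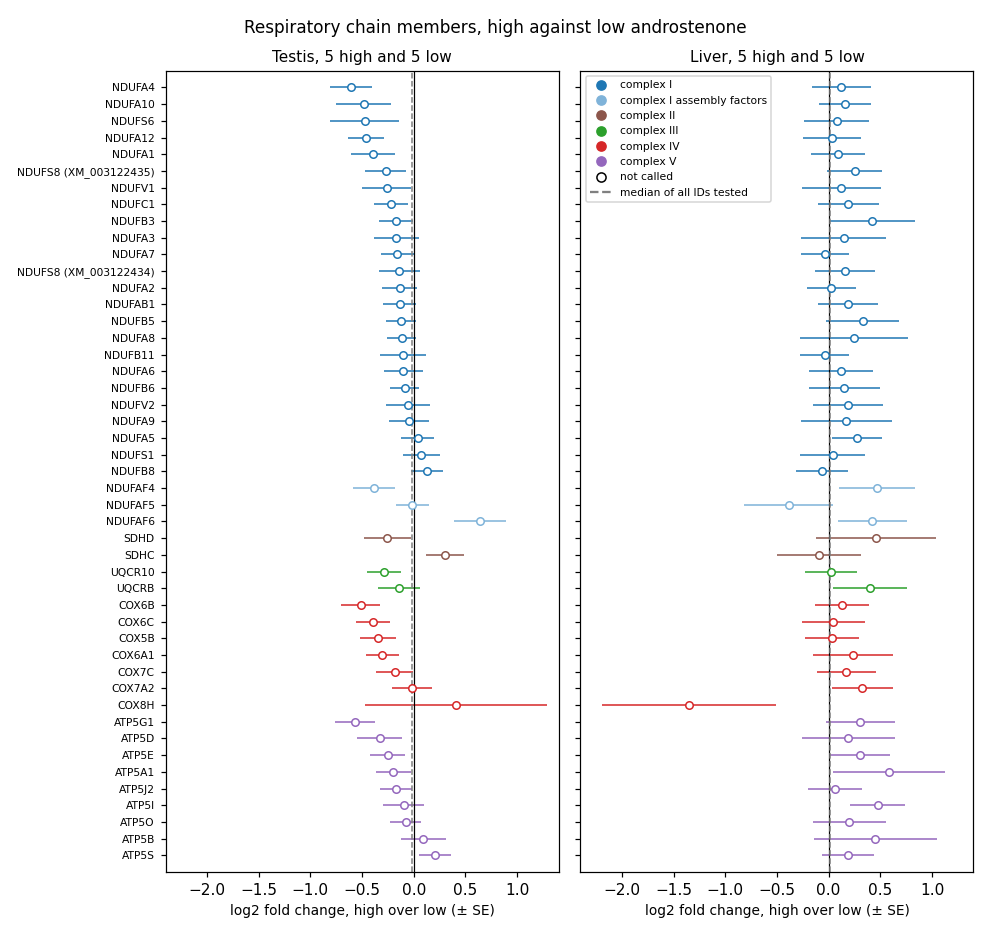
Log2 fold change of each member, high over low androstenone (x axis, ± SE, 5 libraries a group), in testis (left) and in liver (right), with the members ordered by complex and by the testis value on the y axis; the dashed lines are the medians of all IDs tested. All points are open since none passed the threshold, 39 of 47 lie below 0 in testis and 41 of 47 above 0 in liver, and the bar of COX8H is wide because its counts are few.

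Genes that work beside the respiratory chain were read from 4 lists. Of 16 symbols of the tricarboxylic acid cycle, which supplies NADH and succinate, 11 were matched with 12 IDs. In testis against liver 1 ID was called higher and 8 lower, beside the 43.5% and 32.2% of all IDs. SUCLG2, the subunit of succinyl-CoA synthetase that sets its specificity for GTP, had 80.6 ± 21.7 CPM (SD, n = 10) in testis and 1030 ± 228 CPM (SD, n = 10) in liver, a log2 fold change of -3.68 ± 0.21. SUCLG1, the subunit shared by both forms of that enzyme, had -1.80 ± 0.23, and IDH3A, the catalytic subunit of NAD-dependent isocitrate dehydrogenase, was the one that was higher in testis, by 1.27 ± 0.24. With library totals 4 IDs of the cycle were called higher and 2 lower, these 3 genes among them in the same direction. Of all 19065 IDs, library totals called 11348 higher and 3577 lower. On the share of mapped reads in liver, 7 IDs of the cycle rose and 1, IDH2, fell, where 15.1% of all IDs rose and 14.2% fell. With library totals 5 rose and IDH2 fell, where 6.41% of all IDs rose and 21.9% fell.

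Of 16 symbols for cytochrome c and carriers of the mitochondrial membranes, 10 were matched, of which 3 were called higher and 7 lower in testis, where 43.5% of all IDs were higher and 32.2% lower. With library totals 3 were called higher and 3 lower, where 11348 and 3577 of 19065 IDs were. CYCS, the cytochrome c of somatic cells, had 20.4 ± 3.94 CPM (SD, n = 10) in testis and 62.1 ± 38.2 CPM (SD, n = 10) in liver, a log2 fold change of -1.52 ± 0.23 that was -0.50 and not called with library totals. ETFDH, which passes electrons from fatty acid oxidation to ubiquinone, was lower in testis by -3.68 ± 0.17. SLC25A31, an ATP/ADP carrier known from the testis, had 15.6 to 22.7 CPM in the testes and no count in any liver. VDAC2 and VDAC3, channels of the outer membrane, were higher in testis, by 1.87 ± 0.32 and 3.67 ± 0.31, and VDAC1 was lower, by -2.89 ± 0.24. In liver 6 of 9 tested members of this list rose with the share of mapped reads and none fell, beside the same 15.1% and 14.2% of all IDs. With library totals 4 of the 9 rose, where 6.41% of all IDs did, and CYCS and SLC25A4 were no longer called.

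Of 15 regulators of mitochondrial biogenesis 5 were matched, 3 higher and 2 lower in testis, where 43.5% of all IDs were higher and 32.2% lower. With library totals 3 were higher and 1 lower, where 11348 and 3577 of 19065 IDs were. With upper quartile scaling 2 were higher and 2 lower, where 7290 and 7299 IDs were. TFB1M, which methylates mitochondrial ribosomal RNA, had 147 ± 19.7 CPM (SD, n = 10) in testis and 13.1 ± 5.11 CPM (SD, n = 10) in liver, a log2 fold change of 3.50 ± 0.22. TFAM, which packages mitochondrial DNA and starts its transcription, was higher in testis by 0.69 ± 0.20. With upper quartile scaling its value was 0.33 and not called. ESRRA, a nuclear receptor that regulates genes of mitochondrial energy metabolism, was lower in testis by -3.01 ± 0.29. It had 0.401 ± 0.191 CPM (SD, n = 10) in testis, with few counts, and 3.49 ± 1.52 CPM (SD, n = 10) in liver. Of 39 other assembly factors 3 were matched and 1, SDHAF2, was called lower in testis (-1.29 ± 0.20), a value that was -0.28 and not called with library totals. On the share of mapped reads in liver, 2 of the regulators, TFB1M and GABPB1, rose, and of the assembly factors SDHAF2 rose and PET100 fell, beside the 15.1% and 14.2% of all IDs. With library totals 0 regulators were called and SDHAF2 was not called, at 0.58, while PET100 still fell. Of all IDs 6.41% rose and 21.9% fell with library totals. Within either tissue, 0 IDs of these 4 lists differed between high and low androstenone by edgeR's quasi-likelihood test.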

How the data were processed

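RNA-Seq counts of 10 testis and 10 liver samples were analysed. The authors called reads with CASAVA 1.7, aligned them with BWA to RefSeq mRNA and UniGene sequences of Sscrofa 9.2, and deposited raw counts per reference ID. The treatment of reads that fit several sequences is not given in the sources used here. Each table had 21785 lines, and 10 IDs listed 4 times were used once. Symbols came from a RefSeq table of another assembly (Sscrofa11.1) by accession, so no position is given.

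Counts were tested with edgeR 4.0.16 in R 4.3.3 (TMM, quasi-likelihood test, at least 10 summed counts, Benjamini-Hochberg adjustment over all IDs). A call needed an adjusted p under 0.05 and, except for slopes, a fold change of at least 1.5. The SE is the absolute log2 value divided by the root of F. For single members the values of log2(CPM + 0.5) were permuted (exact, two-sided), where 5 against 5 allow no p below 0.00794. The slope used mapped over total reads from the study's read tables. DESeq2 1.42.0, other scalings and filters, covariates and leaving out each sample were alternatives. The procedure was tested on simulated data. Named genes were tissue isoforms, core subunits, the 6 highest and the 6 lowest tissue differences without overlap, the smallest p-values of the other comparisons and, in each pathway list, the 2 smallest p-values with CYCS, TFAM and ESRRA. Other members and list genes were named after their values were seen. The tissue test takes 20 libraries as independent, since the labels do not tie a testis to the liver of its boar. Members, lists and tests were chosen with earlier results of these data known. Python 3.11.15, pandas 2.3.3, scipy 1.17.1 and matplotlib 3.10.9 were also used.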

Additional observations from a re-analysis of the deposited data

Results flagged for a closer look

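Within the groups of 5, 100 sets of values of named members were searched for a library whose gap to its nearest neighbour exceeded 0.71 of the range, which chance gives in about 5% of groups, and 4 such libraries were found. High androstenone liver 3 stood apart for NDUFV1, at 262 CPM where the other 4 high androstenone livers had 63.1 to 110 CPM. The same liver stood apart for ATP5D, at 777 CPM where the others had 143 to 288 CPM. It also had the highest share of mapped reads and the highest total count of the livers. High androstenone testis 4 was low for COX6B, at 32.5 CPM where the others had 48.3 to 50.8 CPM. Low androstenone liver 3 was high for NDUFAF4, at 13.8 CPM where the others had 11.1 to 11.6 CPM. The causes were not tested.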

How the results depend on the processing

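In testis against liver, 31 members were called, and 28 to 33 when 1 library was left out. With the 4 livers of the highest mapped share left out, 11 members were called higher and 22 lower, where 8240 and 6060 of 18963 IDs were. Among named members the log2 value changed sign for COX6A1 (0.70 with library totals only, 0.14 without the 4 livers), NDUFV1 (0.41 with library totals only), COX5B (0.43 with library totals only), ATP5A1 (0.53 with library totals only, 0.28 without the 4 livers) and ATP5B (0.79 with library totals only, 0.037 with the replicate block, -0.42 to 0.14 when 1 library was left out, with 0.14 without high androstenone liver 3, 0.75 without the 4 livers). The cause was not tested. The members' median share of counts moved to 1.07% in testis and 1.08% in liver without the 50 most abundant other IDs. In liver 17 slopes were called, 11 with library totals only and 11 to 19 when 1 liver was left out, and the causes were not tested. With the printed percentage of high androstenone liver 3, which is at odds with its read numbers, 0 were called. Over all named members and alternatives, 833 values kept their direction and side of the threshold, 18 were weaker, 9 stronger and 10 reversed. Alternatives for the slope without each liver, for the other scalings within a tissue, and without the 4 livers were chosen after seeing the data.

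Groups share replicate numbers, but the labels do not pair the samples and the values do not settle it. The mean correlation of deviations between same-numbered libraries was 0.088 between low and high testes, 0.016 between low and high livers, 0.071 between testis and liver with low androstenone and 0.16 with high androstenone, and not every pair exceeded 0.1. Between libraries of different numbers the means were lower, at -0.024, -0.0036, -0.018 and -0.043 in the same order. Of 10 libraries in each pairing, 3, 2, 4 and 4 correlated best with their own number. The replicate block gave 29 members in testis against liver, 7 higher and 22 lower, and 0 members for high against low androstenone in testis, in liver and for the difference.

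Depth limits COX8H, with 0 to 35 counts in a library. No 2 libraries of a group were near-identical, with at least 11.6 times the chi-square of sampling noise.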
